A study of Mus musculus with 10 samples.

Results

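Among lung epithelial cells sorted for the red label of the Red2Kras mouse 2 weeks after tamoxifen, a minority held abundant Sftpc transcript, a marker of alveolar type 2 (AT2) cells. This minority also held no transcript of 8 genes used to mark transitional, mutant or dividing cells, called transition genes here. It was found by a fixed gate on unique molecular identifiers (UMIs, each a counted transcript molecule). A cell barcode was taken when it had at least 1000 detected genes, at most 50000 UMIs, at most 15% of its UMIs on mitochondrial genes, no UMI of the leukocyte gene Ptprc, at least 20 UMIs of Sftpc and no UMI of Spp1, Dlk1, Itga2, Cldn4, Gzme, Krt19, Top2a or Mki67. The gate held 777 cells, 547 in RFP replicate 1 and 230 in RFP replicate 2, of 42012 barcodes in the series, of 32698 that passed the quality filters and of 6925 that passed them without a Ptprc UMI in these 2 libraries. The same gate held 3632 cells of the YFP libraries of that time, 2918 in replicate 1 and 714 in replicate 2, and these are the cells they are compared with.

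All mice carried Sftpc-CreERT2, a tamoxifen-inducible Cre driven in AT2 cells, and all were adults given tamoxifen. In Sftpc-CreERT2; Red2Kras mice the red label (RFP) of a multicolour reporter marks the mutant cells, while yellow cells (YFP) of the same kind of lung are wildtype neighbours. In Sftpc-CreERT2; R26R-Confetti mice both colours are wildtype. EpCAM+ cells of each colour were sorted from distal lung, with at least 2 lungs pooled in a library, and profiled by droplet 3′ RNA sequencing in 10 libraries: 2 per colour for Red2Kras at 2 weeks (2w) and at 4 days (4d), and 1 per colour for Confetti, whose time of 2 weeks is given by the study's methods and not by the labels. The gene counts do not read the mutation, so "mutant" rests on the colour sort alone. The replicates are separate libraries of pooled lungs, and the labels do not say whether an RFP and a YFP library of the same number came from the same lungs. The labels do not give the sex of the mice, and transcripts that differ between the sexes went with the replicate number and not with the colour. In the gated cells of 2 weeks Xist, the transcript of the inactive X chromosome, stood at 168 and 0 counts per 1000000 UMIs (CPM) in RFP and 90.5 and 0.423 CPM in YFP, and the Y-linked Ddx3y at 41.1 and 31.5 CPM in RFP and 45.4 and 28.3 CPM in YFP. Replicate 1 of each colour thus held transcripts of both sexes and replicate 2 nearly none of Xist, as at 4 days (Xist at 529 and 0.391 CPM in RFP and 520.5 and 0.0802 CPM in YFP), whereas Confetti held Xist at 677 and 664 CPM and Ddx3y at 0 and 0. The part of sex in the differences between replicates, and from Confetti, was not tested.

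AT2 cells make pulmonary surfactant, which they store in lamellar bodies, and serve as stem cells of the alveolus. After injury some AT2 cells first take up an inflammation-primed state with secreted defence proteins such as Lcn2, then pass through a keratin-rich transitional state before they flatten into alveolar type 1 (AT1) cells of the gas exchange surface. Growth factor receptors signal through the chain of RAS and the RAF, MEK and ERK kinases, whose output is usually read from the Etv4 and Etv5 transcription factors and from feedback inhibitors of the Dusp and Spry families.

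The cells were chosen by their Sftpc, Ptprc and transition gene UMIs, so the share of cells in the gate is a description and was not tested. In the RFP libraries of 2 weeks the gate held 13.4% (95% exact binomial interval 12.3 to 14.4%) and 8.13% (7.15 to 9.20%) of the barcodes without a Ptprc UMI, against 67.8% and 62.7% in the YFP libraries of that time. It held 74.6% and 74.2% in Confetti, 61.7% and 33.4% in RFP at 4 days and 64.0% and 68.5% in YFP at 4 days. Intervals of this kind cover counting error only. The cells left outside the gate in the RFP libraries were the deeper ones, with a median of 16779 and 13605 UMIs against 11001 and 10603.5 inside, and a deeper cell has more chances to show a transition UMI. With every cell thinned to 3000 UMIs the RFP shares were 35.7% and 21.1% and the YFP shares 78.1% and 63.9%, so the share itself moved with depth while the RFP libraries stayed below the YFP libraries.

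**Figure D1:**
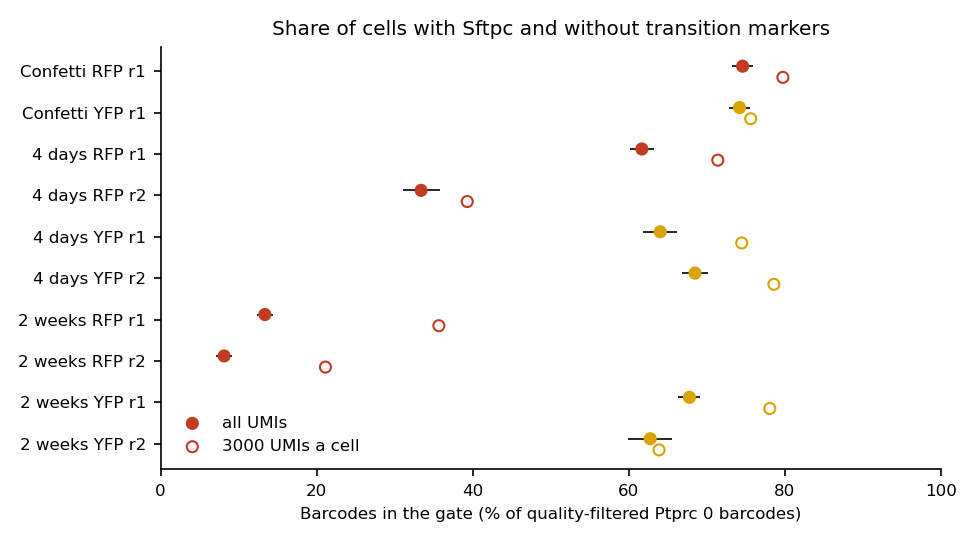
Share of quality-filtered barcodes without a Ptprc UMI that fell in the gate, in percent, for each of the 10 libraries. Filled points use all UMIs with 95% exact binomial intervals and open points use cells thinned to 3000 UMIs. The RFP libraries of 2 weeks sit lowest on both, at 13.4% and 8.13% with all UMIs and at 35.7% and 21.1% after thinning.

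The transition genes removed more RFP cells than the Sftpc threshold, though both removed some. Of 4096 and 2829 RFP barcodes of 2 weeks without a Ptprc UMI, 3345 and 2077 had at least 20 Sftpc UMIs. Of these, 547 and 230 held no transition UMI. Among RFP cells of 2 weeks with at least 20 Sftpc UMIs, Krt19, a keratin of the transitional state, had a UMI in 68.9% and 80.8%, Spp1 (osteopontin) in 30.1% and 31.3%, Cldn4, a tight junction claudin, in 24.3% and 36.7%, and Top2a, a topoisomerase of dividing cells, in 25.7% and 12.4%. In the YFP libraries Krt19 had a UMI in 24.1% and 24.0% of such cells, Spp1 in 0.239% and 3.06%, and Cldn4 in 1.22% and 3.26%. Krt19 also had a UMI in 20.1% and 18.4% of such cells in the RFP and YFP libraries of Confetti, so the gate drops some wildtype AT2 cells too. Just inside the Sftpc threshold, at 20 to 29 UMIs, there were 0 RFP cells without a transition UMI, and just outside it, at 10 to 19 UMIs, there were 2 and 1. Just outside the other threshold, 517 and 229 RFP cells had 1 transition UMI and 348 and 195 had 2. Krt8, a further transitional keratin that the gate did not use, stood at 379 and 268 CPM in the cells with 1 transition UMI and at 471 and 340.1 CPM in those with 2, against 335 and 231 CPM inside the gate and 1105 and 1510.4 CPM over all RFP cells outside it. Lcn2 stood at 8956 and 6295 CPM with 1 transition UMI and at 8043 and 5968 CPM with 2.

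Levels are given below as CPM over all gated cells of a library, replicate 1 first and replicate 2 second, and fold changes are log2 of RFP over YFP from edgeR with its composition scaling (TMM) and standard error. The gated cells held 5955526 and 2319107 UMIs in the RFP libraries and 17061537 and 4733250 UMIs in the YFP libraries. The median gated cell held 5593.5 and 6528 UMIs in YFP. Any 2 libraries of the series shared 1 to 17 cell barcodes, and 2 gated cells of RFP replicate 1 had a barcode that was also in YFP replicate 1. Replicate 1 of both colours stood apart from replicate 2 in stress transcripts. The heat shock chaperone Hspa1a was at 1379.9 and 759 CPM in RFP and 1793 and 382 CPM in YFP, Hspa1b at 1419 and 347 CPM in RFP and 1886 and 285 CPM in YFP, and the immediate-early factor Egr1 at 374 and 94.9 CPM in RFP and 445 and 57.5 CPM in YFP. The colours overlapped for all 3 genes. Confetti stood at 144 and 142 CPM for Hspa1a and 40.4 and 57.6 CPM for Egr1, below replicate 1 of both colours.

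The AT2 identity of the gated RFP cells held on markers that the gate did not use. Sftpb, a surfactant protein needed for breathing, stood at 7289.7 and 7371 CPM in RFP and 6744 and 7133 CPM in YFP. Napsa, the protease that processes it, stood at 3429.6 and 4268 CPM in RFP and 2692 and 3451 CPM in YFP, and Slc34a2, the phosphate carrier of AT2 cells, at 2651 and 2537 CPM in RFP and 2542 and 2593 CPM in YFP. Abca3, the lipid pump of the lamellar body, stood at 427 and 447 CPM in RFP and 491 and 458 CPM in YFP. RFP cells outside the gate held less of each, with Slc34a2 at 1396 and 1166 CPM and Abca3 at 228 and 207 CPM. Markers of most other cell types were low. The 20 macrophage markers summed to 32.4 and 31.5 CPM in RFP and 47.1 and 35.9 CPM in YFP, with 5 of them at 0 in both RFP libraries, and the 10 mesenchymal markers summed to 0.504 and 0.431 CPM in RFP, with 8 of them at 0 in both RFP libraries. The 10 endothelial markers summed to 155 and 146 CPM in RFP and 145 and 143 CPM in YFP, with 6 at 0 in both RFP libraries. The 10 airway secretory markers summed to 1111 and 1052 CPM in RFP and 1713 and 2889 CPM in YFP, of which Hp, a gene that AT2 cells also use, made up 984 and 991 CPM in RFP. A UMI of at least 1 of 7 genes defining other cell types was present in 14.4% and 16.5% of gated RFP cells and 9.42% and 9.24% of gated YFP cells, which differ in depth.

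The question of the main comparison was how RFP cells that showed this AT2 profile differed from YFP cells in the same gate. Whether they had kept the profile or returned to it cannot be read from these libraries. No gene passed an adjusted p of 0.05 with edgeR's quasi-likelihood test, 0 of 10532 genes tested (0% of all genes), and the smallest adjusted p was 0.150. At an unadjusted p under 0.05 there were 542 genes (5.15% of all genes), 266 higher in RFP (2.53%) and 276 lower (2.62%), and DESeq2 called 5 genes. The count of calls depended on the fit, at 96 with no filter on low counts, 1 to 179 with 1 library left out and 425 with the replicate number as a block, and no call is drawn from those fits here. A gene that reached the filter's level of 1.87 CPM in both libraries of 1 colour and in neither library of the other had to differ once it was tested. There were 85 such genes with RFP as the colour and 76 with YFP, and of the other 10371 genes 2.23% were higher and 2.41% lower at an unadjusted p under 0.05. Where a list holds such genes they are named and left out of its count. The median log2 fold change over all genes was -0.0066. Both RFP libraries lay above both YFP libraries for 23.3% of all genes and below them for 11.2% on plain CPM, and for 17.9% and 16.6% once TMM scaling was applied, so a gene whose libraries do not overlap is common. For genes below, "higher" and "lower" therefore describe the 4 libraries. No member of any list described for this comparison passed the adjusted threshold with edgeR in the main fit.

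Across 4393 genes at a mean of at least 20 CPM the gated profiles of the colours were about as far apart as those of the replicates. The median absolute log2 difference was 0.171 between RFP replicate 1 and YFP replicate 1, 0.341 between RFP replicate 2 and YFP replicate 2, and 0.354 and 0.383 for the crossed pairs. Between the RFP replicates it was 0.287, and between the YFP replicates 0.340. The RFP cells outside the gate lay farther from gated YFP cells, at 0.370 to 0.560 over the 4 pairs. The gate used its own genes to make these sets, and the 10 gate genes were left out of the distances and of every test.

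Surfactant and lamellar body genes were abundant in both colours. Of 20 members tested, 0 were higher and 1 was lower at an unadjusted p under 0.05 (2.53% and 2.62% of all genes), and the median log2 fold change was -0.11, against -0.69 when all cells without a Ptprc UMI were compared with no gate on Sftpc or the transition genes. The member past the unadjusted threshold was Hc, complement component C5, which AT2 cells make. It stood at 1278 and 749 CPM in RFP and 2121 and 1855 CPM in YFP, with both RFP libraries below both YFP libraries (log2 fold change -1.07 ± 0.37, edgeR adjusted p = 0.770), while RFP cells outside the gate held 497 and 182 CPM. Ctsh, a cathepsin that processes surfactant protein, was at 1363 and 1625 CPM in RFP and 866 and 963 CPM in YFP, and its log2 fold change of 0.60 ± 0.34 had a 95% interval of -0.15 to 1.35. Lyz2, the lysozyme of AT2 cells and macrophages, overlapped between the colours at 37581 and 21489 CPM in RFP and 34988 and 30399 CPM in YFP. Of 12 AT2 transcription factors tested, 0 passed the unadjusted threshold and the median was -0.08. Nkx2-1, the lung lineage factor, was at 268 and 247 CPM in RFP and 325 and 243 CPM in YFP, with an interval of -0.90 to 0.44 on the log2 scale. Cebpa, a factor of AT2 maturation, stood at 169 and 207 CPM in RFP and 164 and 169 CPM in YFP.

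The primed AT2 genes were abundant in the gated RFP cells and also in their YFP neighbours. Lcn2, the iron-binding lipocalin, stood at 8654 and 5980.3 CPM in RFP and 7199 and 6684 CPM in YFP (log2 fold change -0.03 ± 0.37, 95% interval -0.84 to 0.79), and at 2249 and 2184 CPM in the Confetti libraries. At 4 days Lcn2 was at 2523 and 7426 CPM in RFP and 2200.4 and 6470.4 CPM in YFP, so the libraries numbered 2 of both colours were already high and those numbered 1 stood near Confetti. Lrg1, a secreted acute-phase glycoprotein, stood at 2534 and 2636 CPM in RFP, 1996 and 2426 CPM in YFP and 709.8 and 720.4 CPM in Confetti. Retnla, a resistin-like protein of type 2 inflammation, was at 1219.9 and 686 CPM in RFP and 1498 and 638 CPM in YFP against 113 and 111 CPM in Confetti. Its replicates were farther apart than its colours. Confetti has 1 library per colour, so its distance from Red2Kras is given without a test.

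Among Lcn2, Retnla and Pglyrp1, the secreted peptidoglycan-binding protein Pglyrp1 varied most, as a ratio, between replicates. It stood at 245 and 49.2 CPM in RFP and 126 and 15.6 CPM in YFP (log2 fold change 1.03 ± 0.76, 95% interval -0.63 to 2.69), and each RFP library lay above the YFP library of its number, though the colours overlapped. A Pglyrp1 UMI was present in 70.2% and 26.96% of gated RFP cells and 36.5% and 8.26% of gated YFP cells, and in 41.4% and 14.02% of RFP cells and 24.5% and 4.29% of YFP cells once every cell was thinned to 3000 UMIs. In barcodes with a Ptprc UMI of the same libraries, where leukocytes can make Pglyrp1 themselves, the shares were 34.2% and 10.7% in RFP and 20.9% and 3.12% in YFP. RFP cells outside the gate held 501 and 203 CPM. Within the gate Lcn2 was spread over a wide range of cells. At 3000 UMIs a cell the 10th percentile, median and 90th percentile of Lcn2 were 8, 22 and 44 UMIs in RFP replicate 1, 2.3, 13 and 34.7 in RFP replicate 2, and 4, 16 and 40 in YFP replicate 1.

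Over the whole primed and acute-phase list, 19 genes were tested, 0 were higher and 1 was lower at an unadjusted p under 0.05 (2.53% and 2.62% of all genes), and the median was -0.28. The lower member was Hp, haptoglobin, at 984 and 991 CPM in RFP and 1360.2 and 1784 CPM in YFP (edgeR adjusted p = 0.965). Orm1, another acute-phase plasma protein, overlapped at 73.5 and 52.6 CPM in RFP and 53.5 and 33.4 CPM in YFP, with Confetti at 4.90 and 5.12 CPM. This list and those of the transition and late mutant states follow the study's own cell states, so they are not independent of these samples.

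Inside the gate, genes of the transitional state that the gate had not used differed little between the colours. Of 24 tested, Plaur met the filter on low counts only in RFP. Of the other 23, 0 were higher and 0 lower at an unadjusted p under 0.05 (2.23% and 2.41% of all genes not so admitted). The median over all 24 was 0.09 inside the gate against 1.65 with no gate. The gate removes cells by other genes of the same state, so the smaller difference is partly set by the rule. Gated RFP cells were also deeper than gated YFP cells, at a median of 11001 and 10603.5 against 5593.5 and 6528 UMIs, which makes the rule stricter for RFP. The part of either was not tested. Krt18, the partner of Krt8 in simple epithelial filaments, stood at 422 and 399 CPM in RFP, 408 and 243 CPM in YFP and 1726 and 2863 CPM in RFP cells outside the gate. Clu, the secreted chaperone clusterin, stood at 441 and 251 CPM in RFP and 365 and 289 CPM in YFP, and at 5222 and 5129 CPM outside the gate, the widest gap to the outside cells among these 3. Krt8 itself overlapped between the colours (0.09 ± 0.34 on the log2 scale, 95% interval -0.65 to 0.83). Anxa1, a membrane-binding annexin, was at 173 and 139 CPM in RFP and 117 and 90.2 CPM in YFP with no overlap, and its interval of -0.15 to 1.16 included 0. Plaur, the urokinase receptor, was at 4.37 and 2.59 CPM in RFP and 0.762 and 0.845 CPM in YFP. That level was far below the 155 and 189 CPM of RFP cells outside the gate. Areg, an EGFR ligand, stood at 167 and 63.4 CPM in RFP and 270.1 and 64.02 CPM in YFP, with replicate 1 higher than replicate 2 in each colour.

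**Figure D2:**
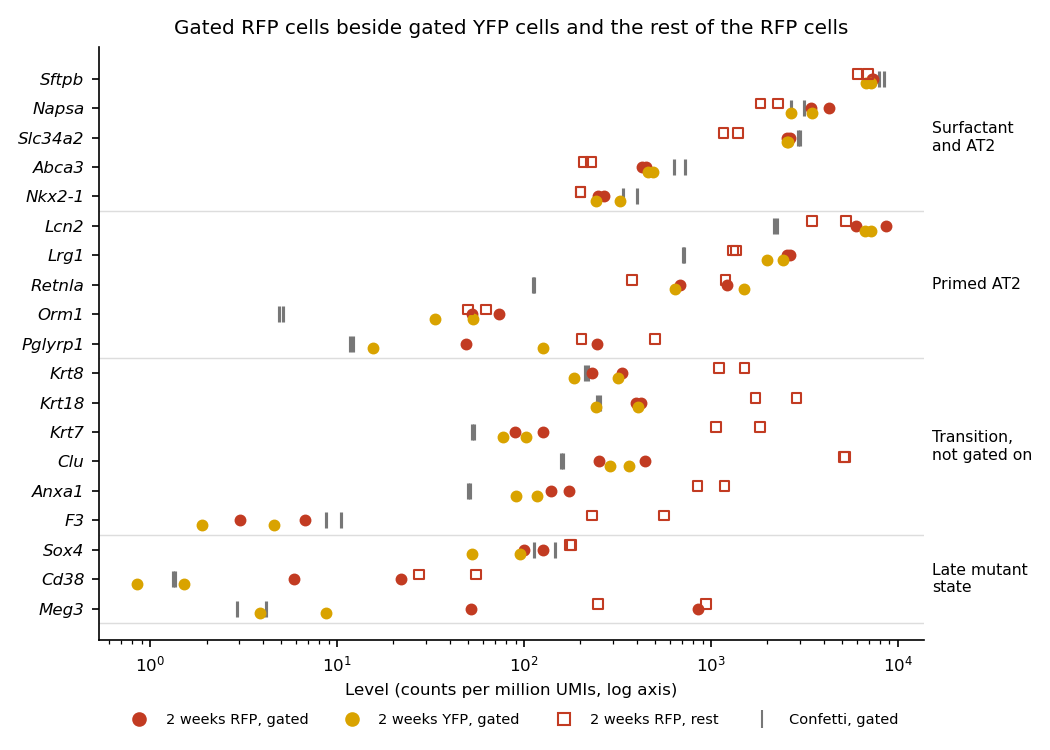
Level of AT2, primed, transitional and other genes in CPM on a log axis. Filled red points are the gated RFP libraries and filled yellow points the gated YFP libraries of 2 weeks, open red squares are RFP cells outside the gate, and grey ticks are gated Confetti libraries. For the keratins, Clu, Anxa1 and F3 the gated RFP points sit below the open squares, with Anxa1 also above its YFP points, while Meg3 and Cd38 sit above the YFP points.

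Of 21 genes of the late mutant state measured, only 3, Meg3, Cd38 and Sox4, had enough UMIs to be tested, and 7 were at 0 in both RFP libraries and 12 in both YFP libraries. Cd38 passed the filter on low counts only through the RFP libraries, so these genes are given by their levels and no count over the list is drawn from them. Meg3, a maternally expressed long noncoding RNA, was at 52.2 and 852 CPM in RFP and 3.87 and 8.66 CPM in YFP (log2 fold change 6.14 ± 1.09, edgeR adjusted p = 0.171; 3.00 without RFP replicate 2 and 7.05 without RFP replicate 1), so that both RFP libraries were above both YFP libraries and RFP replicate 2 stood above the rest. RFP cells outside the gate held 248 and 939 CPM. A Meg3 UMI was present in 14.8% and 62.6% of gated RFP cells and 0.685% and 1.68% of gated YFP cells. In barcodes with a Ptprc UMI of the same libraries the Meg3 share was 12.1% and 16.6% in RFP and 0% and 0.164% in YFP, at a median of 8610 and 12711 UMIs in RFP. Those barcodes also held epithelial transcripts, with a Krt18 UMI in 36.9% and 16.6% of them in RFP and Krt18 at 403 and 197 CPM, so they are no clean reading of transcripts free in the droplets and their shares are given only as values beside the gated ones.

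Kng2, a kininogen, and St8sia6, a sialyltransferase, were also highest in RFP replicate 2. Kng2 was at 12.1 and 226 CPM in RFP and 3.81 and 10.4 CPM in YFP, with a UMI in 5.48% and 43.04% of gated RFP cells and in 5.37% and 5.01% of the RFP libraries' Ptprc barcodes. St8sia6 was at 13.6 and 64.2 CPM in RFP and 1.35 and 6.13 CPM in YFP, with a UMI in 9.87% and 34.8% of gated RFP cells and in 10.1% and 5.01% of Ptprc barcodes. Cd38, an NAD-consuming surface enzyme, was at 5.88 and 21.99 CPM in RFP and 1.52 and 0.845 CPM in YFP (log2 fold change 3.25 ± 0.61, edgeR adjusted p = 0.198). Leukocytes make Cd38 too, and the Ptprc barcodes had a UMI of it in 10.7% and 5.29% in RFP. Cd177, a surface glycoprotein, had too few UMIs to test, with 0.504 and 13.4 CPM in RFP and 0 in both YFP libraries, and a UMI in 0.548% and 1.74% of gated RFP cells. Sox4, a transcription factor of epithelial plasticity, stood at 100.4 and 127 CPM in RFP and 95.4 and 52.8 CPM in YFP, with no overlap and an interval of -0.17 to 1.25. How much of these RFP levels came from transcripts free in the droplets was not tested.

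Of 15 Ras genes and kinases of the chain tested, 0 passed the unadjusted threshold (5.15% of all genes) and the median was 0.06. Hras, a small GTPase of the chain, was at 152 and 196 CPM in RFP and 179 and 259 CPM in YFP. Mapk3, which encodes ERK1, was at 79.1 and 105 CPM in RFP and 80.6 and 66.97 CPM in YFP.

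The output genes of ERK signalling had members on both sides. Of 22 tested, Etv4 and Etv1 met the filter on low counts only in RFP. Of the other 20, 4 were higher and 1 was lower at an unadjusted p under 0.05 (2.23% and 2.41% of all genes not so admitted), and their median was 0.48. Etv4, an ETS transcription factor induced by ERK, stood at 4.03 and 10.8 CPM in RFP and 0.352 and 0.211 CPM in YFP at 2 weeks, at 3.57 and 6.65 CPM in RFP and 0.283 and 0.240 CPM in YFP at 4 days, and at 0.249 and 0.290 CPM in Confetti. All 4 gated RFP libraries of Red2Kras were above all 4 YFP libraries. The log2 fold change at 2 weeks was 4.35 ± 0.71 with an edgeR adjusted p of 0.150. In a fit of the 8 Red2Kras libraries with time as a term, chosen after the data had been seen, the log2 fold change of Etv4 was 4.25 ± 0.49. Etv4 was the 1 gene called there of 11286 (0.00886% of all genes higher), and 396 genes (3.51%) had an unadjusted p under 0.05. Nothing is drawn from that call, since Etv4 passed the filter on low counts only through the RFP libraries. Once tested it had to differ, and its levels per library are the description to read.

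Etv4 remained a rare transcript. A UMI was present in 3.84% and 10.4% of gated RFP cells and 0.206% and 0.140% of gated YFP cells, and in 1.14% and 4.21% of RFP cells and 0.146% and 0.143% of YFP cells after thinning to 3000 UMIs. Barcodes with a Ptprc UMI had it in 2.01% and 2.72% in the RFP libraries and 0.719% and 0.164% in the YFP libraries, at levels of 2.52 and 2.93 CPM in RFP and 1.10 and 0.216 CPM in YFP. RFP cells outside the gate held 19.9 and 31.3 CPM. The part that free transcripts had in the Etv4 difference was not tested.

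**Figure D3:**
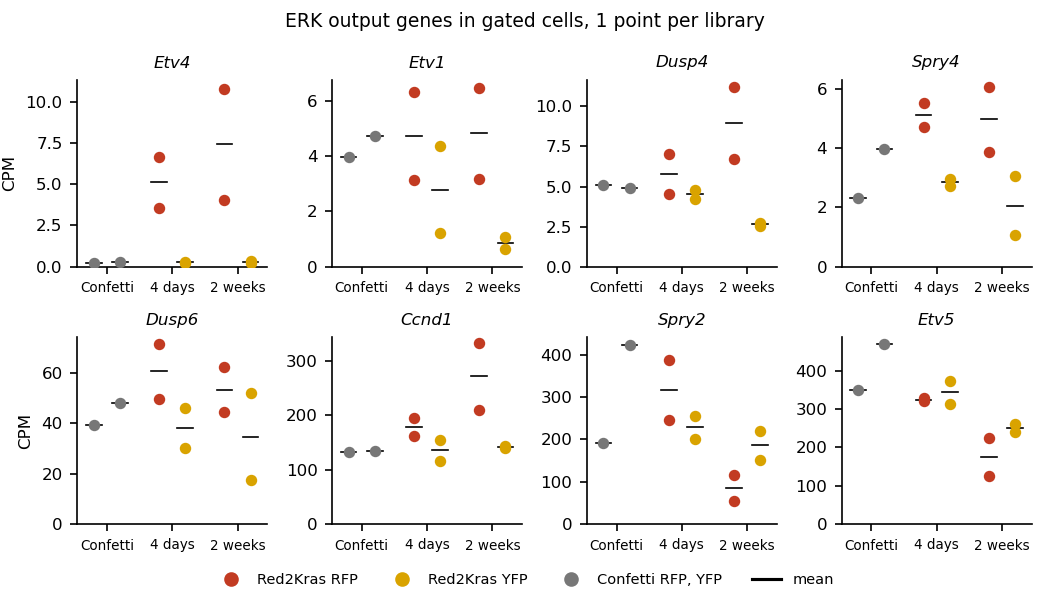
Level of 8 ERK output genes in the gated cells of each library, in CPM, for Confetti, 4 days and 2 weeks. Red points are RFP libraries, yellow points YFP libraries and bars group means. Etv4 is higher in each RFP library of Red2Kras than in any YFP or Confetti library, at 4.03 and 10.8 CPM in RFP at 2 weeks, while Spry2 is lower in RFP than in YFP at 2 weeks.

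Etv1, a related ETS factor, was at 3.19 and 6.47 CPM in RFP and 0.645 and 1.06 CPM in YFP at 2 weeks, but Confetti stood at 3.99 and 4.74 CPM, between the RFP libraries. Dusp4, an ERK phosphatase, was at 6.72 and 11.2 CPM in RFP, 2.75 and 2.54 CPM in YFP and 5.06 and 4.93 CPM in Confetti (1.62 ± 0.41, adjusted p = 0.521 with edgeR). Ccnd1, the cyclin D1 that carries ERK signals to the cell cycle, was at 210.4 and 333 CPM in RFP, 143 and 139 CPM in YFP and 132 and 135 CPM in Confetti (0.84 ± 0.34, adjusted p = 0.939 with edgeR), above both comparators in both libraries. The other 2 of the 4 higher members, named here after their values were seen, were the feedback inhibitor Spry4 at 6.04 and 3.88 CPM in RFP and 3.05 and 1.06 CPM in YFP, and Myc, the growth factor-induced transcription factor, at 13.8 and 1.72 CPM in RFP and 3.05 and 0.845 CPM in YFP. For Myc the colours overlapped, with RFP replicate 2 below YFP replicate 1. Spry2, a feedback inhibitor of receptor kinases, ran the other way at 117 and 53.9 CPM in RFP and 221 and 152 CPM in YFP (-1.20 ± 0.38, adjusted p = 0.732 with edgeR). At 4 days Spry2 stood at 245 and 388 CPM in RFP and 201 and 256 CPM in YFP, with no such order. Etv5, the AT2 factor downstream of ERK, was lower in both RFP libraries, at 224 and 124 CPM against 261 and 240.4 CPM, with an interval of -1.38 to 0.13. Phlda1, another ERK-induced gene, overlapped at 571 and 215 CPM in RFP and 544 and 218 CPM in YFP.

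Of 17 AT1 genes tested, 1 was higher and 2 were lower at an unadjusted p under 0.05 (2.53% and 2.62% of all genes), and the median was 0.05. Pdpn, the podoplanin of the AT1 surface, stood at 13.8 and 43.98 CPM in RFP and 5.74 and 6.76 CPM in YFP (2.08 ± 0.49, adjusted p = 0.395 with edgeR). Confetti was at 1.33 and 2.13 CPM and RFP cells outside the gate at 47.4 and 85.7 CPM. Ager, the receptor for glycation end products and the best known AT1 marker, overlapped at 857 and 1336 CPM in RFP and 1028 and 1241 CPM in YFP. Clic5, a chloride channel protein, was lower at 16.6 and 21.1 CPM in RFP against 30.01 and 25.6 CPM in YFP, and so was Sec14l3, a lipid transfer protein, at 10.1 and 15.5 CPM in RFP against 19.1 and 19.4 CPM in YFP.

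Chemokines and colony-stimulating factors had members on both sides. Of 13 chemokines and colony-stimulating factors tested, 3 were higher and 0 were lower at an unadjusted p under 0.05 (2.53% and 2.62% of all genes). These were Cxcl1, Cxcl3 and Cxcl5, and the median of that list was 0.10. Cxcl15, another CXC chemokine of the list, overlapped at 17798 and 11964 CPM in RFP and 12659 and 13119 CPM in YFP. Cxcl3, a neutrophil attractant, stood at 43.5 and 20.3 CPM in RFP and 11.8 and 8.03 CPM in YFP (1.61 ± 0.36, adjusted p = 0.395 with edgeR). Pf4, platelet factor 4 (CXCL4), which was not on that list, stood at 49.03 and 24.1 CPM in RFP, 12.9 and 9.08 CPM in YFP and 29.7 and 30.3 CPM in Confetti (1.66 ± 0.35, adjusted p = 0.319 with edgeR). At 4 days Pf4 was at 61.1 and 103 CPM in RFP and 23.03 and 20.04 CPM in YFP, so all 4 Red2Kras RFP libraries were above both YFP libraries of their time, though RFP replicate 2 of 2 weeks was below Confetti. Cxcl1 was higher in each RFP library than in the YFP library of its number, at 101 and 24.6 CPM against 36.6 and 10.6 CPM, with overlap between the colours. RFP cells outside the gate held more of Cxcl1 (219.6 and 78.6 CPM) and Cxcl3 (165 and 105 CPM). The 22 NF-kB and interleukin-1 genes tested had a median of -0.24. Of them, 2 were higher (Cxcl1 and Cxcl5 again) and 1 was lower at an unadjusted p under 0.05 (2.53% and 2.62% of all genes). The lower gene was Il1r1, the interleukin-1 receptor, at 6.38 and 5.61 CPM in RFP, 10.96 and 9.72 CPM in YFP and 19.3 and 18.7 CPM in Confetti (-0.86 ± 0.33, adjusted p = 0.902 with edgeR). Nfkbia, the inhibitor induced by NF-kB, followed the replicate number at 229 and 73.7 CPM in RFP and 190.0 and 76.1 CPM in YFP.

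Interferon response genes had a median below 0, and a minority of them passed the unadjusted threshold on the lower side. Of 15 tested, Oasl2 met the filter on low counts only in YFP. Of the other 14, 0 were higher and 3 were lower at an unadjusted p under 0.05 (2.23% and 2.41% of all genes not so admitted), and their median was -0.34. Isg15, a ubiquitin-like interferon product, was at 21.7 and 18.1 CPM in RFP and 45.8 and 44.2 CPM in YFP (-1.27 ± 0.29, adjusted p = 0.395 with edgeR), and at 9.63 and 12.9 CPM in Confetti, so both colours of Red2Kras were above Confetti. Ifi27l2a, an interferon-induced mitochondrial protein, stood at 76.6 and 10.3 CPM in RFP and 182 and 68.5 CPM in YFP with overlap. Of 8 MHC class II genes and 15 MHC class I genes, 0 passed the unadjusted threshold in either direction. H2-Aa, an MHC class II chain that AT2 cells carry, stood at 989 and 999 CPM in RFP and 817 and 939 CPM in YFP, and the class II median was 0.03 in the gate against -0.66 with no gate.

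Sterol and fatty acid synthesis genes, which supply surfactant lipid, had a median below 0 and few members past the unadjusted threshold. Of 23 tested, 0 were higher and 2 were lower at an unadjusted p under 0.05 (2.53% and 2.62% of all genes), 10 had both RFP libraries below both YFP libraries and 1 above on plain CPM (11.2% and 23.3% of all genes, or 16.6% and 17.9% of all genes with TMM scaling), and the median was -0.43. Insig1, the sterol sensor of the endoplasmic reticulum, stood at 144 and 105 CPM in RFP and 260.3 and 303 CPM in YFP (-1.29 ± 0.33, adjusted p = 0.523 with edgeR) and was among the 5 genes DESeq2 called. Confetti stood at 181 and 402 CPM, 1 library below and 1 above the YFP libraries. The most abundant member, the desaturase Scd1, was at 6896 and 7328 CPM in RFP and 7483 and 8771 CPM in YFP, with an interval of -1.12 to 0.51.

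Cells with Top2a or Mki67 UMIs had been removed by the gate, yet some DNA replication genes that peak earlier in the cycle were on the higher side. Of 19 S phase genes tested, Cdc45 met the filter on low counts only in RFP. Of the other 18, 5 were higher and 0 were lower at an unadjusted p under 0.05 (2.23% and 2.41% of all genes not so admitted), and their median was 0.53. Mcm6, a subunit of the replicative helicase, was at 14.8 and 9.06 CPM in RFP and 6.10 and 4.01 CPM in YFP (1.16 ± 0.35, adjusted p = 0.726 with edgeR). Rrm1, which makes deoxynucleotides, was at 12.1 and 9.92 CPM in RFP and 5.80 and 4.86 CPM in YFP. At 4 days Mcm6 stood at 6.69 and 14.5 CPM in RFP and 4.66 and 8.10 CPM in YFP. Of 11 genes of G2 and mitosis outside the gate, 3 were higher and 0 were lower at an unadjusted p under 0.05 (2.53% and 2.62% of all genes), with Cdc20, an activator of the anaphase complex, at 16.3 and 20.7 CPM in RFP and 10.2 and 9.93 CPM in YFP against 101 and 49.7 CPM outside the gate. The CDK inhibitor Cdkn1a overlapped at 208 and 136 CPM in RFP and 159 and 83.03 CPM in YFP. The gated RFP cells were deeper than the gated YFP cells, which sets how surely a cell with few cell-cycle UMIs leaves the gate, and the part of depth in these counts was not tested.

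Among detoxification genes Cbr2 and Cyp2b10, and beside them the airway gene Scgb1a1 and the neutrophil gene S100a8, stood lower in both RFP libraries than in both YFP libraries. Of 15 detoxification genes tested, 0 were higher and 4 were lower at an unadjusted p under 0.05 (2.53% and 2.62% of all genes), 3 had both RFP libraries above both YFP libraries and 5 below (23.3% and 11.2% of all genes), and the median was -0.16, with the highest member at 0.68. Cbr2, a lung carbonyl reductase of AT2 and airway cells, stood at 969 and 331 CPM in RFP, 1462 and 1110.4 CPM in YFP and 3558 and 3707 CPM in Confetti, and Cyp2b10, a cytochrome P450 of airway cells, at 4.70 and 0.862 CPM in RFP, 11.6 and 15.8 CPM in YFP and 33.9 and 42.3 CPM in Confetti. Scgb1a1, the secretoglobin of airway club cells, moved with them. It stood at 109.8 and 49.6 CPM in RFP and 337 and 1095 CPM in YFP (-3.33 ± 0.60, adjusted p = 0.171 with edgeR), and at 5081 and 33294 CPM in YFP cells outside the gate. With 1 library left out, the log2 fold change of Scgb1a1 ran from -2.04 (without YFP replicate 2) to -4.01 (without RFP replicate 1). S100a8, a neutrophil gene whose protein forms calprotectin with that of S100a9, stood at 0 and 0.431 CPM in RFP and 7.03 and 6.76 CPM in YFP and met the filter on low counts only in YFP. S100a9 stood at 0.672 and 2.59 CPM in RFP and 8.62 and 10.6 CPM in YFP. The 11 lymphoid, neutrophil and mast cell markers summed to 2.01 and 3.02 CPM in RFP and 17.99 and 19.01 CPM in YFP. The 8 ciliated cell markers summed to 46.7 and 31.5 CPM in RFP and 75.6 and 71.8 CPM in YFP. Of 7 macrophage markers tested, Cd52 and Tyrobp met the filter on low counts only in YFP. Of the other 5, 0 were higher and 1 was lower at an unadjusted p under 0.05 (2.23% and 2.41% of all genes not so admitted). Whether these differences reflect the gated cells or transcripts from other cells of each library was not tested.

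Among genes at 20 CPM or more in the higher group, those with the smallest p in each direction that have not been described above were as follows. On the higher side Gpc3, a glypican of the cell surface, was at 36.6 and 38.4 CPM in RFP and 12.8 and 11.2 CPM in YFP (1.55 ± 0.28, adjusted p = 0.171 with edgeR). Adamts1, a secreted metalloprotease, was at 108 and 60.4 CPM in RFP and 32.5 and 16.1 CPM in YFP (1.71 ± 0.37, adjusted p = 0.358 with edgeR), and it was the 1 gene that DESeq2 called higher. For Gpc3 the gated RFP cells were above Confetti (5.48 and 7.15 CPM), while for Adamts1 Confetti (51.97 and 58.9 CPM) stood below both RFP libraries and above both YFP libraries. Filip1, a filamin regulator, stood at 24.2 and 29.8 CPM in RFP and 8.38 and 8.66 CPM in YFP, Qpct, an enzyme that cyclises glutamine at protein ends, at 14.3 and 31.05 CPM in RFP and 6.51 and 6.34 CPM in YFP, Gjb1, the gap junction protein connexin 32, at 21.5 and 27.6 CPM in RFP and 12.2 and 7.82 CPM in YFP, and Ogfrl1 at 68.00 and 63.4 CPM in RFP and 34.3 and 19.9 CPM in YFP.

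On the lower side Notch2, the receptor, was at 24.7 and 13.4 CPM in RFP, 56.1 and 56.6 CPM in YFP and 85.7 and 195 CPM in Confetti (-1.63 ± 0.34, adjusted p = 0.301 with edgeR). Polr2l, a small subunit of RNA polymerases, was at 47.9 and 38.4 CPM in RFP and 110.0 and 128 CPM in YFP (-1.57 ± 0.32, adjusted p = 0.292 with edgeR), and was called lower by DESeq2. Confetti stood at 67.2 and 173 CPM and 4 days at 55.2 and 323 CPM in RFP and 68.1 and 159.5 CPM in YFP, so Polr2l differed as much between libraries of other groups. Cox7a1, a subunit of mitochondrial complex IV, was at 7.22 and 4.31 CPM in RFP and 20.6 and 21.97 CPM in YFP (-1.91 ± 0.35, adjusted p = 0.171 with edgeR). Scx, a basic helix-loop-helix factor, stood at 12.9 and 15.1 CPM in RFP and 35.1 and 29.8 CPM in YFP, Kcnk2, a potassium channel, at 18.3 and 9.92 CPM in RFP and 37.98 and 33.4 CPM in YFP, Dpysl2, a cytoskeletal regulator, at 33.4 and 29.3 CPM in RFP and 66.1 and 69.7 CPM in YFP, and Mrps9, a mitochondrial ribosome protein, at 38.6 and 36.2 CPM in RFP and 86.5 and 70.1 CPM in YFP. Rpgrip1 stood at 22.2 and 13.8 CPM in RFP and 41.6 and 40.99 CPM in YFP, D17H6S53E at 8.90 and 7.33 CPM in RFP and 19.9 and 20.1 CPM in YFP, and Tppp3, a tubulin polymerising protein of ciliated cells, at 21.5 and 18.1 CPM in RFP and 43.02 and 45.4 CPM in YFP.

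**Figure D4:**
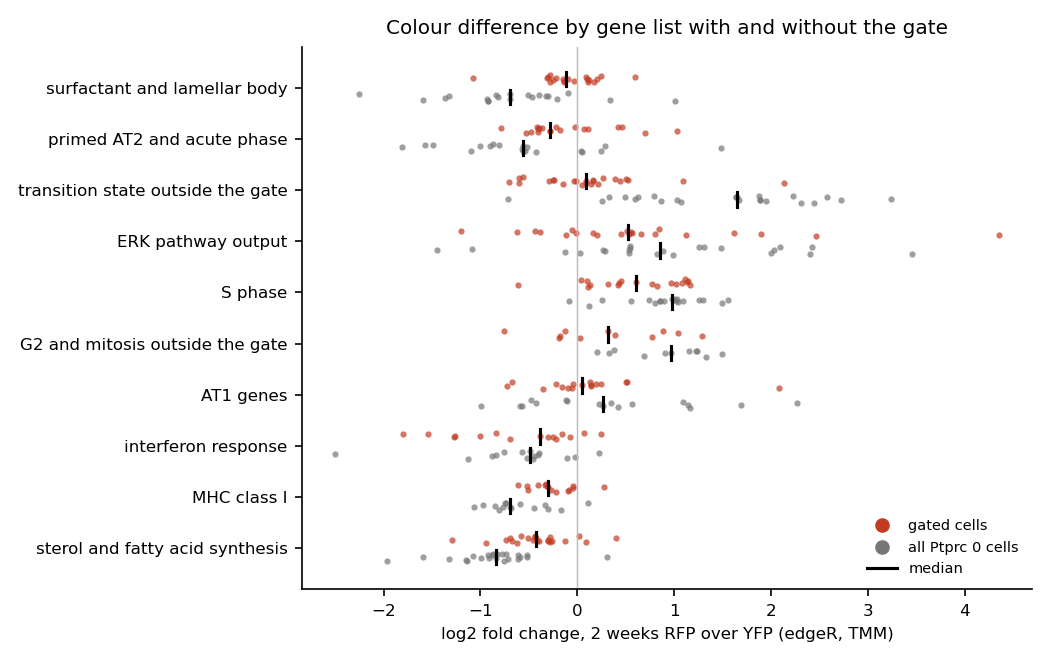
Log2 fold change of RFP over YFP at 2 weeks for each gene of the lists, with list medians, for gated cells (red) and for all cells without a Ptprc UMI (grey). The transition list has a median of 0.09 in the gate against 1.65 without it, and the surfactant list -0.11 against -0.69.

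Of 27 lists with a median both inside the gate and without it, 23 had a median closer to 0 inside the gate, the surfactant, transition and mitosis lists among them, and 4 had one farther from 0. The NF-kB and interleukin-1 list had a median of -0.24 in the gate and -0.05 without it, and the immediate-early list -0.11 and 0.09. The other two were the late mutant list and the lymphoid, neutrophil and mast cell markers, whose few tested genes include Cd38 and S100a8, admitted through 1 colour, so no median is given for them. The glycolysis and hypoxia list had a median of 0.03 in the gate and 0.64 without it, and the G2 and mitosis list 0.31 and 0.97. The ERK output list, over all 22 members, had 0.52 and 0.86. With no gate on Sftpc or the transition genes, 0 of 14034 genes passed the adjusted threshold with edgeR and 2256 (16.1%) had an unadjusted p under 0.05, against 5.15% inside the gate. The gate removes cells by genes that differ between the colours, so a smaller difference inside it is partly set by the rule and was not tested. Heat shock and immediate-early lists had medians of -0.02 and -0.11. At an unadjusted p under 0.05, 1 of 16 heat shock genes and 0 of 17 immediate-early genes were higher (2.53% of all genes). In both lists 0 were lower (2.62% of all genes). The heat shock gene was the chaperone Hsp90ab1 at 872 and 1157 CPM in RFP and 694 and 433 CPM in YFP.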

How the data were processed

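The authors deposited raw UMI counts per gene and barcode for 10 libraries. The submitters' processing notes name Cell Ranger 3.1.0 and GRCm38, while the deposited count files carry the mark of Cell Ranger 5.0.1. The labels name version 2 chemistry and the methods version 3, which bears on depth. Counts of gated cells were summed per library and tested with edgeR 4.0.16 in R 4.3.3 (TMM, filterByExpr, quasi-likelihood F test, Benjamini-Hochberg), with 2 libraries per colour. The 10 gate genes and mitochondrial genes were left out. Fold changes carry TMM factors and CPM does not, so small differences can point opposite ways, as for Sftpb. The p-values measure the spread between libraries of pooled lungs, and the labels give no extraction or sequencing batch. No doublet was removed, since Scrublet (scanpy 1.11.5) called 0 to 21 barcodes per library and had not worked.

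Genes named were the 4 markers, the 12 of smallest p in each direction at 20 CPM or more in the higher group (0 genes passed the adjusted threshold of 0.05), and from each of 28 lists up to 4 of highest level and up to 4 of smallest p. Some genes the rule names are not reported here. AT2 and transitional markers come from a fixed marker list. Other genes in the figures were chosen after their values were seen. The cells, members and lists were chosen with earlier results of these data known. Alternatives were DESeq2 1.42.0, other scaling, filters, gates, thinning, a replicate block and leaving out libraries. The method was tested on simulated data of this comparison, with 10316 genes tested. It recovered 19.8% of genes set to an absolute log2 fold change of 1 and 96.6% of those set to 2, with 8 false calls. The genes set to change were drawn only from those above a mean of 20 CPM. The simulated libraries were independent, while real libraries of the same number deviated together. These shares therefore do not tell how many real changes the fit missed, least of all for genes at low levels such as Etv4 and Cd38.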

Additional observations from a re-analysis of the deposited data

How the results depend on the processing

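The count of genes called between gated RFP and YFP cells, 0 of 10532, stayed at 0 with RLE size factors, with all 10 libraries in the fit, with at least 50 Sftpc UMIs, with at most 1 transition UMI, without cells holding UMIs of other cell types (smallest adjusted p 0.0502) and without high doublet scores. It was 5 with DESeq2 (Adamts1 higher, and Polr2l, Insig1, S100g and Apoc1 lower, the last 2 named only for this count), 2 with the gate set after thinning (Ereg and Hhex, both higher and named only for this count), 3 with gated cells thinned to 3000 UMIs (Meg3 and Hhex higher, Scgb1a1 lower), and 96 of 16869 with no filter on low counts (50 higher, 46 lower). It was 1 (Etv4) in the fit of 8 Red2Kras libraries, an alternative chosen after the data had been seen. Etv4 passed the filter on low counts only through the RFP libraries, so nothing is drawn from that call. Leaving out 1 library gave from 1 to 179 calls, namely 179 without RFP replicate 1, 20 without RFP replicate 2, 1 without YFP replicate 1 and 13 without YFP replicate 2, where the lone library of a colour is assumed to vary like the other colour. The cause of these moves was not tested. The setting with at least 50 Sftpc UMIs left 547 and 228 RFP cells and 2914 and 713 YFP cells, nearly the main set. The setting without high doublet scores left 544 and 229 RFP cells and 2793 and 704 YFP cells. Its scores came from Scrublet, which had not worked. The counts of 0 in these settings therefore add little to that of the main fit. With the replicate number as a block the count was 425 (188 higher, 237 lower), 56 of them among the 184 genes named by the rule. Same-numbered libraries deviated together (correlation 0.507 over 10532 genes), but with 2 pairs and no label that ties a number to shared lungs this is a hint from the data and not the design. The methods speak of libraries made on different days and do not assign them to replicate numbers, while Xist was at or near 0 in both libraries numbered 2 and not in those numbered 1. Of 184 named genes tested, none was called with its sign turned in any alternative, while signs of genes not called turned for 0 to 32 of them. A difference in effect between 4 days and 2 weeks was called for 0 of 11286 genes with edgeR (169 at an unadjusted p under 0.05). Etv4 and Cd38 rest on few UMIs in YFP, which limits the precision of their fold changes.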
